A study of Mus musculus with 4 samples.

Results

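The 57 genes described here build and run the machinery that moves chromosomes in mitosis: the kinetochore, its checkpoint, the spindle motors and the condensin I complex with topoisomerase II alpha. They were taken by gene symbol from the 54752 genes listed in each count file. All 57 were found, and all had enough counts to be tested in the comparison of the genotypes, as 14330 genes did in all.

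RNA of polarized CD4+ T cells was sequenced in 2 WT and 2 Mek1/2-tKO libraries. The knockout mice carried Cd4-Cre with floxed alleles of both Map2k1 and Map2k2 (Map2k1 fl/fl, Map2k2 fl/fl), which encode the kinases MEK1 and MEK2 of the Ras-ERK pathway, and WT littermates served as controls. Sorted naïve CD4+ splenocytes were activated through CD3 and CD28 and held under T follicular helper (Tfh) conditions, that is IL-6 with blocking antibodies to TGF-β, IFN-γ, IL-4 and IL-2. Viable cells were sorted again on day 3, and both genotypes went through the same steps. Cd4-Cre acts in developing thymocytes, so by design the alleles should be removed in CD4+ and CD8+ lineages and before activation. The ages of these mice were not given in the sources used here, and nothing states that replicates came from separate animals, so the p values measure only the spread between these libraries, which may be technical.

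At mitosis, condensin and topoisomerase II alpha compact and untangle the replicated chromosomes. An inner kinetochore assembles on the centromeric histone CENP-A, an outer kinetochore grips spindle microtubules, and the spindle assembly checkpoint holds back anaphase until every chromosome is attached. Activated CD4+ T cells divide rapidly, and most of these genes are transcribed mainly in late S, G2 and M phase, so that their level in a culture follows both the share of dividing cells and the RNA each such cell holds.

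The library totals lay between 16330802 and 18931090 counts, so 3 counts, the limit that a count of 0 allows for counting error, came to at most 0.184 CPM (counts scaled to a common library total). Levels below are in CPM, scaled by edgeR's TMM method. The targeted gene Map2k1 had 182 and 187 in WT and 98.0 and 105 CPM in Mek1/2-tKO, with a log2 fold change of -0.86 (SE 0.08). Map2k2 had 155 and 165 in WT and 172 and 182 CPM in Mek1/2-tKO, with a log2 fold change of 0.15 (adjusted p = 0.126, edgeR), and these counts do not separate transcripts that lack the floxed exons. The cell type label was checked against markers. Cd4 itself stood at 297 and 289 in WT and at 18.8 and 25.1 CPM in Mek1/2-tKO. Of 10 T-cell markers, 5 were lower and 1 was higher in Mek1/2-tKO, and their sum went from 2760 and 2776 CPM to 2424 and 2290 CPM. The higher one was Thy1, at 561 and 574 CPM in WT and 1021 and 998 CPM in Mek1/2-tKO, which offsets part of the fall in that sum. All 12 B-lineage markers were higher (summed 1598 and 1567 CPM in WT against 8898 and 8754 CPM in Mek1/2-tKO), as were all 5 γδ T-cell markers (6.98 and 4.36 CPM against 184 and 165 CPM) and all 8 NK markers (145 and 145 CPM against 910 and 830 CPM). Nkg7 held the largest part of the NK sum, at 62.8 and 65.1 CPM in WT and 436 and 405 CPM in Mek1/2-tKO. Some T cells also express Nkg7, Prf1, Gzma, Klrk1 and Eomes. The other NK markers, Ncr1, Klrb1c and Klra8, were at most 1.03 CPM in WT and between 4.53 and 11.5 CPM in Mek1/2-tKO. Of 8 myeloid markers, the 6 that were tested were higher (summed over all 8, 42.4 and 41.9 CPM against 337 and 269 CPM; 3.44 and 3.94 CPM against 23.6 and 19.01 CPM without Ly6c2, which some T and NK cells also express), with Adgre1 and S100a8 at 0 in both WT libraries, Csf1r at 0 in WT replicate 1 and Itgam at 0 in WT replicate 2. The part of this difference in cell makeup in the results below was not tested, and in bulk RNA fewer cells of a type and less RNA per cell cannot be told apart.

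Many of the 57 genes were lower in the Mek1/2-tKO cells than in WT, most often those of the corona, condensin, cohesion and checkpoint roles and least often those of the inner kinetochore. A gene was called when the Benjamini-Hochberg adjusted p of edgeR's quasi-likelihood F test, taken over all 14330 genes, was under 0.05 and the change was at least 1.5-fold. By that rule 22 of the 57 genes fell (38.6%), against 16.4% of all tested genes. None rose, against 19.3% of all tested genes, although 9 of the 57 had a positive change at an unadjusted p under 0.05 in edgeR. DESeq2 called 21 lower and 0 higher. It called 9.45% of 22643 genes lower, a wider set than the 14330 that passed edgeR's count filter, so that share is not comparable with the 16.4%. By edgeR the other 35 were not called. The shares of 16.4% lower and 19.3% higher over all tested genes also stand against the counts by role and by list below. With the adjusted p alone, 34 were lower and 8 higher, against 27.2% and 27.8% of all genes. At a fold of at least 2, 9 were lower, against 7.26% of all genes.

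The median log2 fold change of the 57 genes was -0.38, against 0.02 for all tested genes, and the values ran from -1.30 for Ncapd2 to 0.56 for Pttg1. Both Mek1/2-tKO libraries lay below both WT libraries for 37 genes (64.9%; 38.8% of all tested genes), above them for 12 (21.1%; 39.5% of all tested genes), and the libraries overlapped for 8. Summed over the 57 genes, the level was 5605 and 5599 in WT and 4262 and 4201 CPM in Mek1/2-tKO. The knockout sum was therefore 75.5% of the WT sum, and 79.8% without Top2a, the most abundant of them by CPM. The genes took 0.579 and 0.574% of all counts in WT and 0.404 and 0.417% in Mek1/2-tKO.

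**Figure D1:**
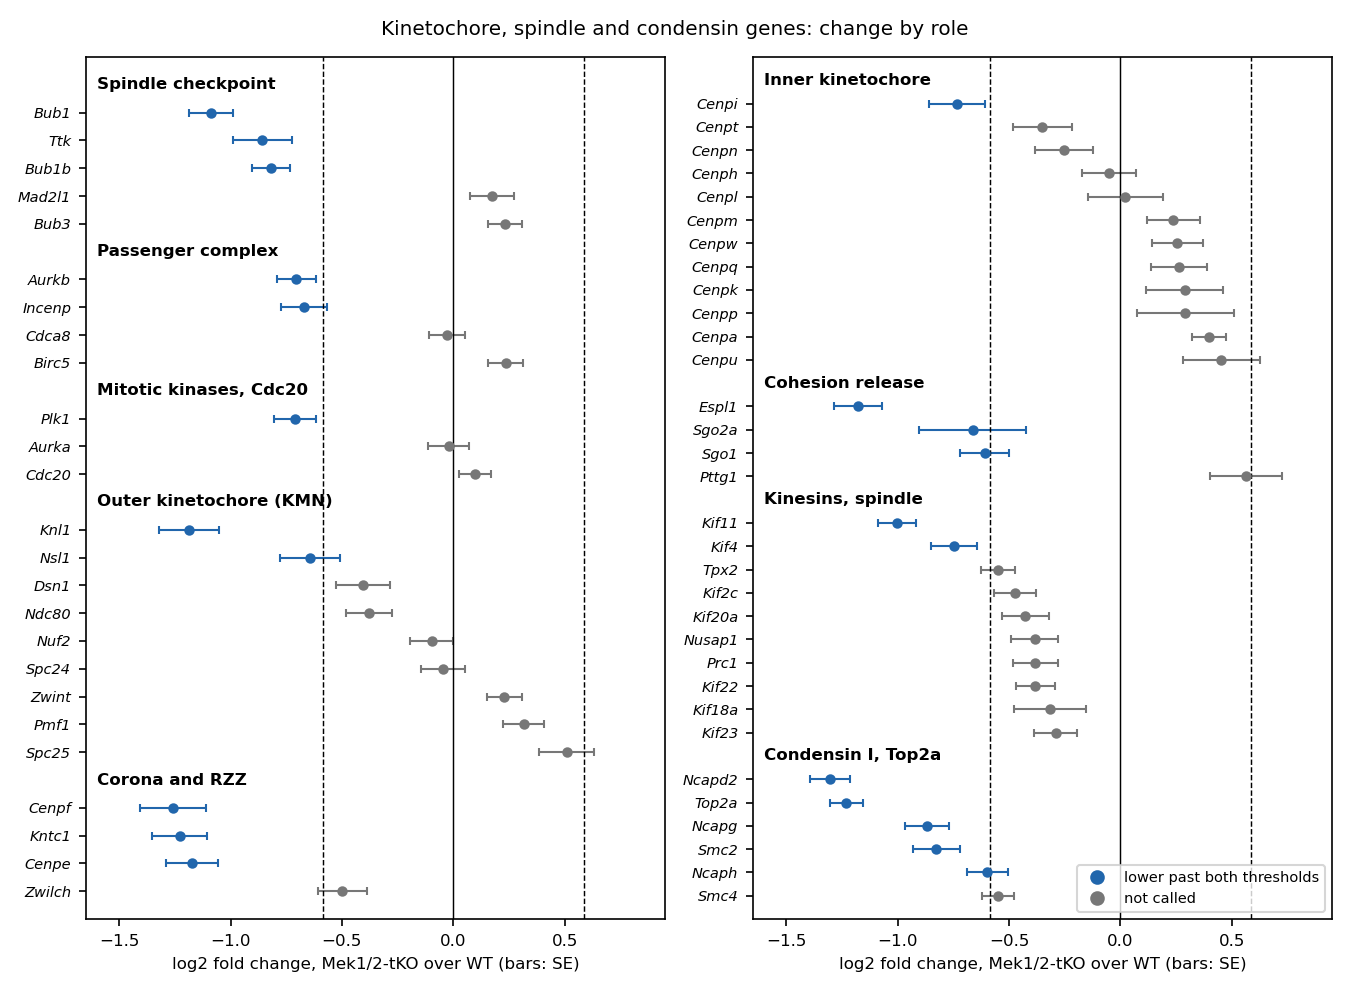
Each of the 57 genes is placed by its log2 fold change (Mek1/2-tKO over WT, x axis) within its role. Bars are standard errors from edgeR, dashed lines mark a 1.5-fold change and blue points passed both thresholds. The corona, condensin and checkpoint kinase genes lie to the left, down to -1.30, while 8 of the 12 inner kinetochore genes lie right of 0.

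Promoters of these genes are known for the CHR (cell cycle genes homology region), an element bound by MuvB complexes with B-MYB and FOXM1 that time transcription to G2 and M phase, and for CCAAT boxes, which bind NF-Y. RefSeq promoters (GRCm38.p6, 250 bases before to 50 bases after the annotated start) were found for 49 of the 57 genes. A CHR match, here TTTGAA or TTCGAA on either strand (TTCGAA reads the same on both), was found in 31 of them (63.3%), against 21.7% of all 27025 genes with a promoter. CCAAT on either strand was found in 36 (73.5%, against 41.1%), and an E2F-like run (TTCCCGC or else TTCGCGC or else TTGCCGC or else TTGGCGC, on either strand) in 11 (22.4%, against 10.9%). These are matches of letters, not tested sites, and no search was corrected for the base composition of the promoters.

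The upstream sequence of Top2a is shown because this gene carried the most matches and one of the deepest falls. It covers the 180 bases before the annotated start, with CHR matches (TTTGAA, its reverse complement TTCAAA and also TTCGAA) and CCAAT boxes (CCAAT and its reverse complement ATTGG) in capitals.
Top2a (chr11:99024190-99024369, minus strand): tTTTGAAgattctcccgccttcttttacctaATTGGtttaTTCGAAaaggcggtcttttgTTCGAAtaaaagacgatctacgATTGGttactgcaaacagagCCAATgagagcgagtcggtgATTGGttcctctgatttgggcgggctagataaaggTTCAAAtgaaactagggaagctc
The run holds 4 CHR matches and 4 CCAAT boxes, and its last CHR match begins 23 bases before the start.

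CHR matches lay close to the start: 26 of the 49 genes (53.1%) had one within 50 bases of it, against 6.12% of all genes. Among genes called lower the count was 14 of 19 (73.7%) and among genes not called 12 of 30 (40%), a difference that was not tested. The windows of 30 bases around the match are shown for 12 of the genes whose values follow, with the CHR match in capitals. These 12 were not picked in proportion to the counts above. Cdca8, Cenpa, Spc25 and Bub3, which were not called, also had a match within 50 bases of the start and are not shown. The matches shown begin at positions -27 to 32 counted from the start base as 0. Genes called lower come first.
Bub1 (chr2:127831828-127831857, minus strand): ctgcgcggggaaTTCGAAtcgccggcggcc
Ttk (chr9:83834684-83834713, plus strand): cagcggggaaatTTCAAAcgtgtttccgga
Plk1 (chr7:122159453-122159482, plus strand): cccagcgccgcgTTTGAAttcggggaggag
Knl1 (chr2:119047138-119047167, plus strand): agggcggttagaTTTGAAtacttcagggac
Cenpf (chr1:189688067-189688096, minus strand): ggcggcgggcagTTTGAAtcgctcgtgctg
Kntc1 (chr5:123749706-123749735, plus strand): ttctcccgccaaTTCAAAtcagtggcaggg
Espl1 (chr15:102296254-102296283, plus strand): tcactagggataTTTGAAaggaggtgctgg
Kif11 (chr19:37376351-37376380, plus strand): tcgtctccatttTTCAAAattgaggcgcgg
Kif4 (chrX:100626072-100626101, plus strand): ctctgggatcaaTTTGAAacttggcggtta
Genes that were not called follow.
Aurka (chr2:172370521-172370550, minus strand): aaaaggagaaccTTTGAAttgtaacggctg
Cdc20 (chr4:118437344-118437373, minus strand): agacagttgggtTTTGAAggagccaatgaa
Kif23 (chr9:61946780-61946809, minus strand): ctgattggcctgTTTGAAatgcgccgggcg
Kntc1, Kif11 and Ttk hold the element in the reverse direction (TTCAAA), and Bub1 holds the TTCGAA form.

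**Figure D2:**
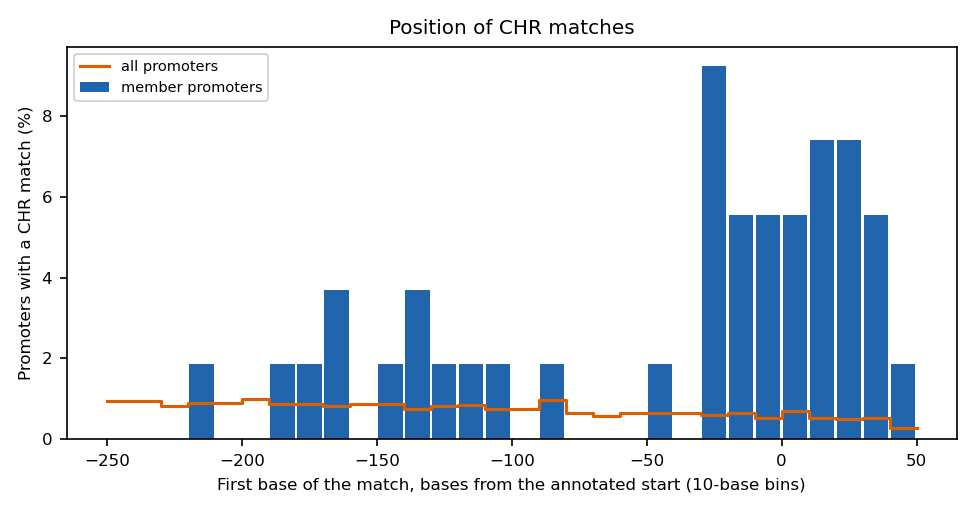
Blue bars give the share of the 54 RefSeq promoters of these genes with a CHR match that begins in each 10-base bin (x axis, bases from the annotated start), and the orange line gives the same share of all 32851 promoters. The bars reach 9.26% just before the start, where the line stays below 1%.

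In the spindle checkpoint 3 of 5 genes fell, Bub1, Ttk and Bub1b, and the other 2, Mad2l1 and Bub3, were not called. Bub1, the kinase that marks unattached kinetochores, had 79.5 and 78.7 in WT and 37.3 and 37.0 CPM in Mek1/2-tKO. Its libraries were tightly grouped and well apart, with a log2 fold change of -1.09 (SE 0.10, adjusted p = 8.22e-07, edgeR). Ttk, the MPS1 kinase that starts checkpoint signalling, went from 32.7 and 32.7 CPM to 19.1 and 17.1 CPM, a log2 fold change of -0.86 (SE 0.13, adjusted p = 9.37e-05, edgeR), again without overlap. Bub1b (BUBR1) also fell, with a log2 fold change of -0.82. Mad2l1, the MAD2 protein that inhibits CDC20, had 138 and 127 in WT and 165 and 135 CPM in Mek1/2-tKO, where the groups overlapped and the test was not passed (log2 fold change 0.18, adjusted p = 0.152, edgeR). Bub3, the partner of BUB1 and BUBR1, had a log2 fold change of 0.23 (adjusted p = 0.0192, edgeR), below the fold threshold. With the GC and length trends described below taken out, Bub3 was at 0.57 and Mad2l1 at 0.53, still under the fold threshold.

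The chromosomal passenger complex had 2 of 4 genes lower, its kinase and its scaffold. Aurkb, the Aurora B kinase, had 132 and 148 in WT and 86.6 and 85.5 CPM in Mek1/2-tKO (log2 fold change -0.70, SE 0.09, adjusted p = 1.80e-05, edgeR). Incenp, the scaffold that activates Aurora B, had 170 and 179 CPM in WT against 96.2 and 123 CPM. Both genes had every Mek1/2-tKO library below every WT library. The fall of Incenp (log2 fold change -0.67) rested on Mek1/2-tKO replicate 1, without which it was -0.51 and under the fold threshold. Cdca8 (borealin) stood at 148 and 146 in WT and at 150 and 139 CPM in Mek1/2-tKO, with overlapping groups and a log2 fold change of -0.03. Birc5 (survivin) had a log2 fold change of 0.24.

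Of the other mitotic regulators, Plk1, the polo-like kinase of mitotic entry and spindle assembly, fell from 129 and 136 CPM to 75.4 and 86.5 CPM, with a log2 fold change of -0.71 (SE 0.09, adjusted p = 2.50e-05, edgeR). Cdc20, the activator of the anaphase-promoting complex that the checkpoint restrains, had 223 and 230 in WT and 240 and 245 CPM in Mek1/2-tKO. Aurka, the centrosomal Aurora kinase, had 108 and 99.0 in WT and 108 and 95.9 CPM in Mek1/2-tKO. Neither passed the test (log2 fold changes 0.10 and -0.02), and the Aurka libraries overlapped. The Plk1 libraries did not.

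In the KMN network of the outer kinetochore, which binds microtubules, 2 of 9 genes fell (22.2%, against 16.4% of all tested genes). The summed level was 97.9% of that in WT. Knl1, the scaffold on which BUB proteins dock, had 34.5 and 34.0 in WT and 14.1 and 15.9 CPM in Mek1/2-tKO. That is a log2 fold change of -1.19 (SE 0.13, adjusted p = 6.56e-06, edgeR), with clear separation of the groups. Nsl1, a subunit of the MIS12 complex, had 35.8 and 43.9 CPM against 26.9 and 24.2 CPM. Its log2 fold change of -0.64 shrank below the fold threshold without WT replicate 2 (-0.49) or without Mek1/2-tKO replicate 2 (-0.57). Spc24 of the NDC80 complex had 88.1 and 82.8 in WT and 88.7 and 76.9 CPM in Mek1/2-tKO, which overlap. Its partner Spc25 had a log2 fold change of 0.51 (adjusted p = 0.00326, edgeR), short of the fold threshold, though it reached 0.59 without either replicate 2. The remaining 5 genes, Ndc80, Nuf2, Zwint, Dsn1 and Pmf1, lay between -0.41 and 0.32.

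The fibrous corona and the RZZ complex, which recruit dynein and checkpoint proteins to unattached kinetochores, carried the lowest role median, -1.20. Of its 4 genes 3 fell, and the summed WT level was 2.04 times that in Mek1/2-tKO. Cenpf, a large farnesylated corona protein, had 40.9 and 34.0 in WT and 14.02 and 17.2 CPM in Mek1/2-tKO (log2 fold change -1.26, SE 0.15, adjusted p = 9.39e-06, edgeR). Kntc1, the ROD subunit of RZZ, had 65.2 and 65.1 CPM against 24.5 and 30.9 CPM, a log2 fold change of -1.23 (SE 0.12, adjusted p = 1.90e-06, edgeR). In both genes the knockout libraries lay far below both WT libraries. Cenpe, the kinesin that carries chromosomes to the metaphase plate, fell by 1.17 on the log2 scale. Zwilch, another RZZ subunit, had 45.8 and 48.9 in WT and 33.7 and 33.3 CPM in Mek1/2-tKO. Its groups did not overlap, but the log2 fold change of -0.50 was under the fold threshold.

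In the inner kinetochore 1 of 12 genes fell and 0 rose, the median log2 fold change was 0.25 (0.16 to 0.30 over the scalings tried) and the summed level was 114% of that in WT. Cenpi fell from 38.0 and 34.3 CPM to 22.2 and 21.3 CPM, with a log2 fold change of -0.74 (SE 0.13, adjusted p = 0.000232, edgeR) and no overlap. Cenpu had 12.5 and 10.3 in WT and 15.1 and 16.1 CPM in Mek1/2-tKO, a log2 fold change of 0.45 (SE 0.17, adjusted p = 0.0398, edgeR) under the fold threshold, and 26.7% of its exon bases overlap Primpol on the other strand. Cenpl had 21.0 and 22.5 in WT and 26.0 and 18.3 CPM in Mek1/2-tKO, so the 2 knockout libraries lay on either side of WT (log2 fold change 0.02). The groups did not overlap for Cenpu. Cenpa, the centromeric histone itself, had 193 and 193 in WT and 263 and 245 CPM in Mek1/2-tKO, with a log2 fold change of 0.40 (adjusted p = 0.000543, edgeR), also under the fold threshold. At an unadjusted p under 0.05, 3 of the 12 had a positive and 2 a negative change in edgeR, and DESeq2 called 0 higher. The other 8, the genes encoding CENP-H, K, M, N, P, Q, T and W, lay between -0.35 and 0.29. In Cenpp 12.6% of the exon bases overlap genes on the other strand.

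Among the genes that guard and release sister cohesion, the protease fell and its inhibitor had a positive change that was not called. Espl1 (separase), which cuts cohesin at anaphase, had 101 and 112 in WT and 42.7 and 51.1 CPM in Mek1/2-tKO, a log2 fold change of -1.18 (SE 0.11, adjusted p = 8.88e-07, edgeR). Pttg1 (securin), which holds separase inactive, had 26.99 and 28.5 in WT and 49.3 and 33.1 CPM in Mek1/2-tKO. Every Pttg1 value in the knockout was above WT, and the 2 knockout libraries differed from each other by more than the WT pair did. Its log2 fold change was 0.56 (SE 0.16, adjusted p = 0.00892, edgeR), just short of the fold threshold, 0.82 without Mek1/2-tKO replicate 2 and 0.25 without replicate 1. Sgo2a (shugoshin 2) had 9.13 and 10.6 in WT and 4.91 and 7.46 CPM in Mek1/2-tKO, low counts among the 57 genes. Its fall (log2 fold change -0.66, adjusted p = 0.0306, edgeR) was lost in DESeq2 (adjusted p = 0.100), without WT replicate 2 (-0.56) and without Mek1/2-tKO replicate 1 (-0.40), and 35.0% of its exon bases overlap Kctd18 on the other strand. Sgo1 (shugoshin 1), which protects centromeric cohesin in mitosis, fell by 0.61 on the log2 scale, and by 0.55, under the fold threshold, with upper-quartile scaling.

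All 10 kinesins and spindle microtubule proteins had negative changes, from -1.002 to -0.29, against 49.1% of all tested genes. In all 10 both Mek1/2-tKO libraries lay below both WT libraries, against 38.8% of all tested genes. With the GC and length trends described below taken out, Kif18a (0.035), Kif23 (0.064) and Prc1 (0.0012) were no longer negative. The adjusted p passed in 9, where 27.2% of all tested genes were lower by it. Only 2 also passed the fold threshold (20%, against 16.4% of all tested genes), and the summed level was 68.6% of WT. Kif11 (EG5), the motor that pushes spindle poles apart, had 186 and 182 in WT and 87.6 and 95.9 CPM in Mek1/2-tKO (log2 fold change -1.002, SE 0.08, adjusted p = 3.84e-07, edgeR). Kif4, a chromosome-arm kinesin that also shapes the central spindle, had 59.5 and 61.9 CPM against 36.0 and 36.3 CPM, with a log2 fold change of -0.75 (SE 0.10, adjusted p = 3.90e-05, edgeR). Both motors had knockout replicates close to each other. Kif23, of the centralspindlin complex of cytokinesis, had 67.5 and 71.8 in WT and 57.4 and 56.5 CPM in Mek1/2-tKO, a smaller change of -0.29 (SE 0.10). Tpx2, the spindle assembly factor that activates Aurora A, was at -0.55, and the rest (Kif2c, Kif18a, Kif20a, Kif22, Nusap1 and Prc1) lay between -0.47 and -0.32. Exon bases overlap a gene on the other strand by 15.1% in Kif4, 33.2% in Kif20a and 11.1% in Prc1, and the strand setting of the counting was not given in the sources used here.

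Condensin I with topoisomerase II alpha was the role with the most calls, 5 of 6 genes, and its summed level was 50.3% of WT. Ncapd2, a regulatory condensin subunit, had 252 and 267 in WT and 97.1 and 113 CPM in Mek1/2-tKO. This was the largest fall of the 57 genes, at -1.30 on the log2 scale (SE 0.09, adjusted p = 4.40e-08, edgeR), a 2.47-fold difference. Top2a, which untangles sister chromatids and whose promoter is shown above, had 641 and 637 CPM in WT against 265 and 280 CPM (log2 fold change -1.23, SE 0.07, adjusted p = 1.37e-08, edgeR). For both genes the gap between the genotypes was many times the gap between replicates. Ncapg, Smc2 and Ncaph fell by 0.87, 0.83 and 0.60 on the log2 scale, and Ncaph was under the fold threshold with upper-quartile scaling (-0.54) and with at least 10 counts in every library (-0.58). In Ncapg 13.4% of the exon bases overlap Lcorl on the other strand. Smc4, the ATPase partner of SMC2, had 267 and 263 in WT and 182 and 180 CPM in Mek1/2-tKO, which did not overlap, and its change of -0.55 (SE 0.07, adjusted p = 2.64e-05, edgeR) was just under the fold threshold.

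Levels per summed exon length (RPKM) allow a rough comparison between genes. That length counts every annotated exon of a gene, so it need not be the length of the transcript made in these cells. In WT the 57 genes ran from 1.41 RPKM for Sgo2a to 121 RPKM for Cdc20, with Top2a at 70.9, Plk1 at 60.3 and Incenp at 54.2 RPKM. The log2 fold change did not follow this measure of the WT level: across the 57 genes it correlated with log2 RPKM at r = -0.02 (Spearman rho -0.05). RPKM includes the exon length, with which the change itself correlated (below). Within condensin I, Smc4 at 50.9 and Ncapd2 at 41.4 RPKM in WT became 34.7 and 16.8 RPKM in Mek1/2-tKO.

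**Figure D3:**
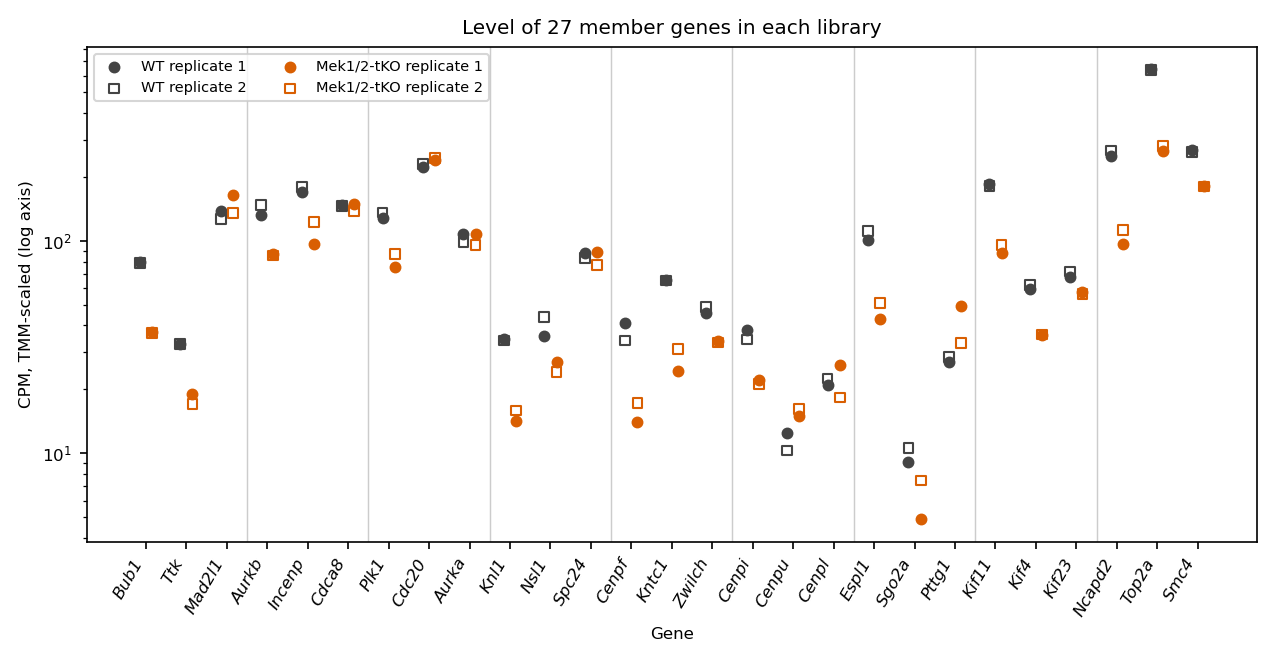
CPM (log axis) of 27 of the genes in each library, grouped by role from the checkpoint on the left to condensin on the right, with WT in grey and Mek1/2-tKO in orange. For Bub1, Knl1, Kntc1, Espl1, Ncapd2 and Top2a both orange points lie far below both grey points, while for Cdca8, Aurka and Spc24 they overlap.

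The length of a gene moved with these changes. Longer genes tended to have lower log2 fold changes throughout the table. Over 14326 tested genes the log2 fold change correlated with log2 exon length at r = -0.29 (rho -0.39), and over the 57 genes at r = -0.50 (rho -0.46), where genes share libraries and are not independent. The 57 genes were longer than most, with a median exon length of 4677 bases against 3656.5 bases. Among the 28 longer ones 15 fell (53.6%), against 28.9% of all tested genes over that length, and among the 29 others 7 fell (24.1%), against 8.89% of all tested genes up to that length. Length also separated the 2 Mek1/2-tKO libraries, since the log2 ratio of replicate 2 to replicate 1 correlated with log2 exon length at r = 0.20, against -0.02 between the WT libraries.

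With lowess trends on GC content and exon length taken out of the log2 fold changes, an alternative added after the data were seen, 16 of the 57 genes were lower and 1, Cenpa at 0.66, was higher. The shares of all tested genes that were lower or higher under this correction were not computed, so these counts have no matching background. The median was then -0.34, against 0.02 for all tested genes, and the correlation with length -0.16. Cenpi, Kif4, Ncaph, Nsl1, Sgo1 and Sgo2a no longer passed the fold threshold. The role medians became -0.75 for the corona, -0.64 for condensin and for the checkpoint, -0.44 for cohesion, -0.32 for the spindle motors, -0.26 for the passenger complex, -0.20 for the mitotic kinases with Cdc20, -0.05 for the outer kinetochore and 0.19 for the inner kinetochore. Mitochondrial genes took 1.62 and 1.56% of the counts in WT and 2.24 and 1.99% in Mek1/2-tKO, and the RNA integrity of the libraries was not given in the sources used here. The part of gene length or RNA quality in the fall of any single gene was not tested.

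**Figure D4:**
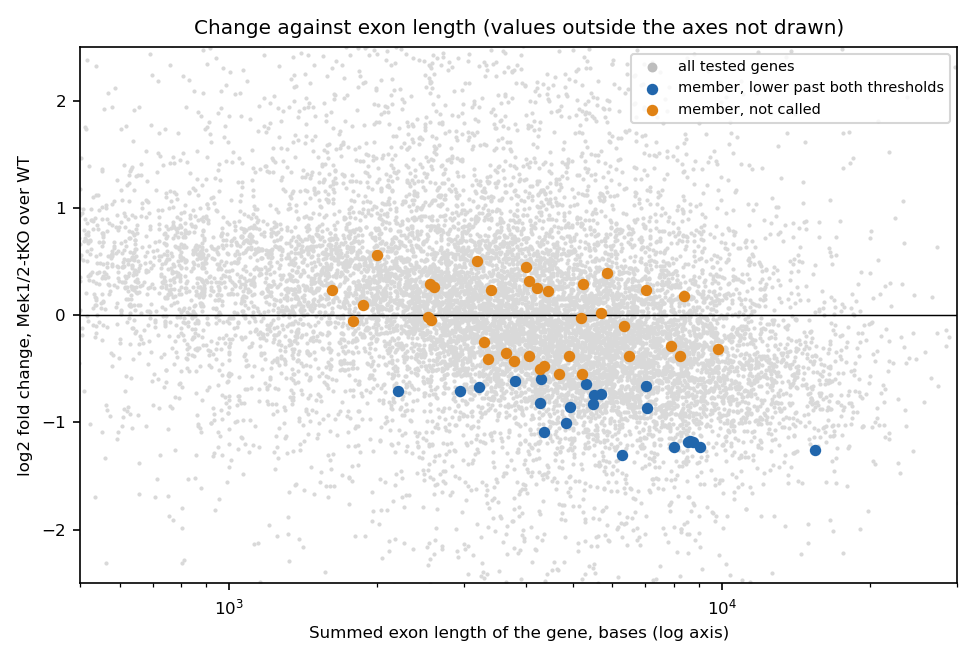
Log2 fold change (y axis, Mek1/2-tKO over WT) against summed exon length in bases (log axis) for all tested genes in grey, with the genes called lower in blue and those not called in orange. The grey cloud slopes down with length (r = -0.29), and the 57 genes slope down with it (r = -0.50) but lie mostly in its lower part.

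Other cell division genes were read from lists of their neighbours in mitosis. Of 25 other kinetochore and centromere genes 6 fell (24%, against 16.4% of all tested genes) and 0 rose (against 19.3%). The median log2 fold change was -0.30, and 3 had a positive change at an unadjusted p under 0.05 in edgeR. Hjurp, the chaperone that loads CENP-A onto centromeres, fell from 248 and 261 CPM to 93.6 and 103 CPM, a log2 fold change of -1.37 (SE 0.08), while Cenpa itself stood at 0.40. The microtubule-end proteins Clasp2 and Clasp1 fell by 1.14 and 1.09. Of 23 other spindle and cytokinesis genes 14 fell, led by the spindle-pole protein Aspm (-1.35) and the kinesins Kif15 (-1.18) and Kif20b (-1.14), and 0 rose. None of the 23 had a positive change at an unadjusted p under 0.05 in edgeR. DESeq2 likewise called 0 higher in either list.

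Of 16 cohesin and condensin II genes 12 fell and 0 rose, with a median of -0.79. In that list no gene had a positive change at an unadjusted p under 0.05 in edgeR, DESeq2 called 0 higher, and the condensin II subunits Ncapd3 and Ncapg2 fell by 1.15 and 1.05 and the cohesin regulator Pds5a by 1.03. The anaphase-promoting complex and its regulators lay near the middle of all genes, at a median of -0.03. Of the 17 genes, 2 were lower (11.8%, against 16.4% of all tested genes). Those were the scaffold subunit Anapc1 (-1.04) and Cdc27 (-0.66), and the small subunit Anapc13 rose from 17.4 and 20.3 CPM to 45.5 and 37.0 CPM (1.12).

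Of 19 genes that control G2 and M phase, 6 fell (31.6%, against 16.4% of all tested genes) and 1 rose (median -0.30). Mki67, the proliferation antigen that coats mitotic chromosomes, fell from 302 and 315 CPM to 124 and 141 CPM, a log2 fold change of -1.21 (SE 0.08). Mybl2 (B-MYB) and Foxm1, which act on CHR promoters, fell by 1.14 and 1.07, and Lin37, a subunit of the MuvB core, rose by 0.66. Ccnb1 (cyclin B1), the partner of CDK1 at mitotic entry, had 91.6 and 86.2 in WT and 87.3 and 76.2 CPM in Mek1/2-tKO, overlapping values with a log2 fold change of -0.12 (adjusted p = 0.305, edgeR).

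DNA replication genes, which work in S phase before these, had 10 of 37 lower (27.03%, against 16.4% of all tested genes). In that list 1 was higher, and the median was -0.38. Pole, the catalytic subunit of DNA polymerase epsilon, Lig1, the ligase that joins Okazaki fragments, and Pola1, the catalytic subunit of polymerase alpha, fell by 1.28, 1.13 and 0.80. Fen1, the flap endonuclease, had 8.06 and 6.95 in WT and 12.2 and 12.4 CPM in Mek1/2-tKO (log2 fold change 0.71), but 84.2% of its exon bases overlap a gene on the other strand. The median for replication was thus close to that of the 57 genes, -0.38, and no difference between the lists was tested. With the GC and length trends taken out, fewer genes were lower among the other spindle genes (8), cohesin and condensin II (5) and replication (6). In the anaphase-promoting complex 0 were then lower and 6 higher, and neither Lin37 nor Fen1 passed. Also under the fold threshold were Clasp1 (-0.55), Anapc1 (-0.51), Pds5a (-0.47), Pola1 (-0.40) and Cdc27 (-0.39). The matching shares of all tested genes were not computed.

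**Figure D5:**
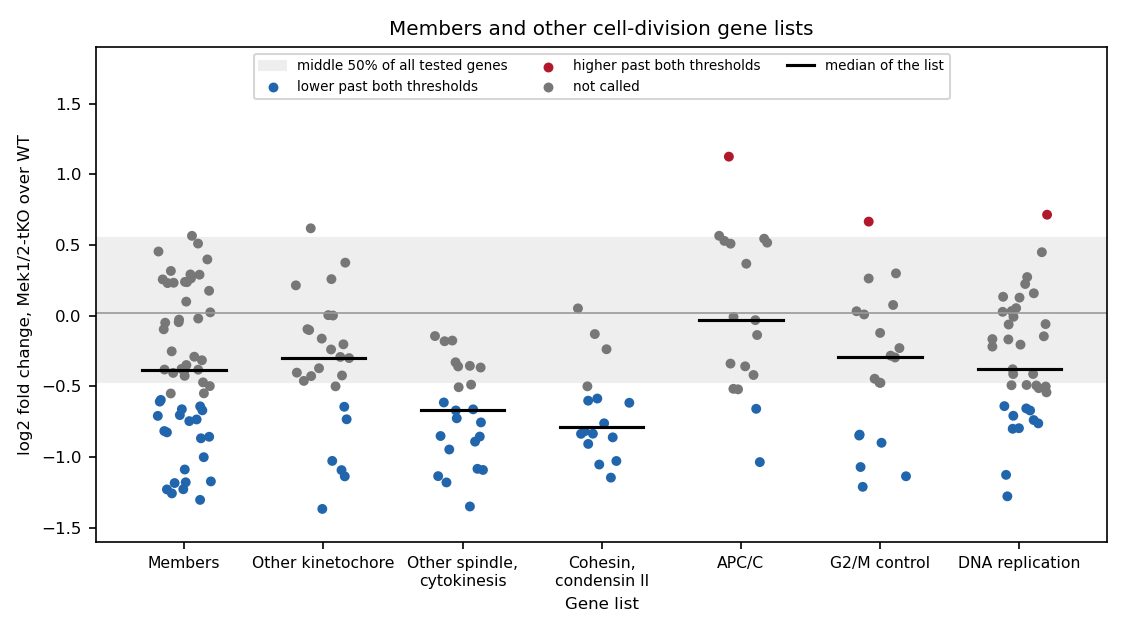
Points are genes by list, placed by log2 fold change (y axis, Mek1/2-tKO over WT), with a black line at each list's median and a grey band over the middle 50% of all tested genes (-0.47 to 0.55). Blue points were lower and red points higher past both thresholds. The medians run from -0.79 for cohesin and condensin II to -0.03 for the anaphase-promoting complex (APC/C).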

How the data were processed

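Per the labels and the study's methods, the authors prepared stranded mRNA libraries, trimmed reads with Trimmomatic 0.36, mapped them to GRCm38 and deposited raw counts of uniquely mapped reads per gene from featureCounts (Subread 1.5.1). The annotation release and strand setting were not given in the sources used here. Of 54752 identifiers, 54723 matched a symbol. The counts of all 4 libraries were fitted over every gene in R 4.3.3 by edgeR 4.0.16, using filterByExpr, TMM scaling and the robust quasi-likelihood F test with genotype as the only term, and p values were adjusted after Benjamini and Hochberg. DESeq2 1.42.0 was an alternative, as were other scalings, filters, thresholds and leaving out each library. On simulated libraries with 200 genes changed 2-fold, edgeR recovered 95% of them and called 2 unchanged genes among 14026 tested. That simulation held no trend on exon length and no shift in cell makeup, while 35.8% of tested genes were called in the data. Its rates therefore need not hold for the calls made here. RPKM used the exon length in the deposited files. Exon overlap used their coordinates. The genes and lists were chosen with earlier results of these data known. Named genes were, in each role, the 2 with the largest absolute change and the 1 with the smallest, in each other list up to 3 called genes with the largest change and those called the other way, and Mki67, Foxm1, Mybl2 and Ccnb1. Other genes named with values were chosen after their values were seen. Replicates of a genotype correlated at 0.995 (WT) and 0.992 (Mek1/2-tKO) and differed by more than sampling noise. Python 3.11.15, pandas 2.3.3, statsmodels 0.14.6 and matplotlib 3.10.9 were used for the other steps.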

Additional observations from a re-analysis of the deposited data

How the results depend on the processing

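With 2 libraries a genotype, the p values lean on the spread shared across genes, and calls near a 1.5-fold change moved with single libraries or settings. The 22 lower calls ranged from 20 to 24 over the other tests, scalings, filters and libraries left out, and became 34 by the adjusted p alone, 9 at a fold of at least 2 and 16 with GC and length trends taken out, an alternative chosen after seeing the data in which the adjusted p was kept and the fold threshold was applied to the corrected change. Genes called higher numbered 0, and 1 with upper-quartile scaling, 1 with the trends taken out, 8 by the adjusted p alone and 0 to 2 with a library left out (Cenpu at 0.59 without WT replicate 1; Pttg1 at 0.60 and Spc25 at 0.59 without WT replicate 2; Pttg1 at 0.82 and Spc25 at 0.59 without Mek1/2-tKO replicate 2). The median of -0.38 lay between -0.47 (library size alone) and -0.33 (upper-quartile). The summed level was 5602 (WT) and 4232 (Mek1/2-tKO) CPM, 5771 and 4108 by library size alone, and 5493 and 4315 with upper-quartile scaling.

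The sources used here do not say whether equal replicate numbers share an animal, day or batch, and deviations of libraries with the same number correlated at -0.02. A replicate block in the fit gave 22 lower and 0 higher genes, with a median of -0.38, and changed no call among the 57.

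By the adjusted p alone, the lower and higher counts were 12 and 2 for other kinetochore genes, 7 and 7 for the anaphase-promoting complex, 10 and 2 for G2 and M control and 19 and 4 for replication. At a fold of at least 2, lower counts were 5 for other spindle genes, 1 for the anaphase-promoting complex, 3 for cohesin and condensin II, 3 for G2 and M control and 2 for replication, and the higher genes of the last 2 lists went to 0. With the trends taken out, lower counts were 8 for other spindle genes, 0 for the anaphase-promoting complex, 5 for cohesin and condensin II and 6 for replication, and higher counts were 6 for the anaphase-promoting complex and 0 for G2 and M control and for replication. No share of all tested genes was computed for that setting. In the complex, library size alone gave 4 lower genes, upper-quartile scaling 3 higher, and leaving out a library 1 to 3 higher. Library size alone left 0 G2 and M control genes higher. One other kinetochore gene was called higher, a count of 1, by the likelihood-ratio test, by upper-quartile scaling and with at least 10 counts in every library.

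Some genes changed sign, and not all of them were near 0. Upper-quartile scaling put Cdca8 at 0.027, Aurka at 0.035, Spc24 at 0.0095 and Cenph at 0.0056, and library size alone put Cenpl at -0.066. With the trends taken out, Cdca8 was at 0.20, Cdc20 at -0.17, Nuf2 at 0.21, Cenpm at -0.053, Kif18a at 0.035, Kif23 at 0.064, Prc1 at 0.0012 and Ccnb1 at 0.00503. In the main fit Prc1 was at -0.38 (adjusted p = 0.00565, edgeR), Kif18a at -0.32 and Kif23 at -0.29 (adjusted p = 0.0208, edgeR). With a library left out, Cdca8 ran from -0.084 to 0.018, Aurka from -0.11 to 0.055, Spc24 from -0.15 to 0.046 and Cenpl from -0.25 to 0.25. In the 250 bases before the start alone, CHR matches were in 36.7% of the genes (19.6% of all genes) and E2F-like runs in 12.2% (9.01% of all genes). The cause of these moves was not tested.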
